A study of Mus musculus with 3 samples.

Results

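The cells labelled gp130 KO were compared with the cells labelled wildtype, all mouse and described by the labels as embryonic stem cells, by total RNA on single-colour Agilent arrays. There was 1 array in each group, so no test was possible, no error between cultures is known, and each difference below is a difference between 2 arrays. A gene entered the comparison when its probe was flagged well above background on both arrays, which held for 14100 of the 20652 named genes on the array (68.3%). Another group of the series, labelled LIFR KO, also has 1 array. Its signals are set beside the others for reference, and since both knockouts are read against the same wildtype array, a value that is off on that array moves both. The gp130 KO group differs from wildtype by its label in the gene for gp130, Il6st, and both groups share their stated culture, which is given only as standard, and the same Trizol extraction and Cy3 labelling. The labels give no strain, clone, passage, deleted exon or LIF dose, so the effect of the genotype and that of the particular line or clone cannot be told apart.

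gp130 is the signalling chain that the receptors for LIF, interleukin 6, interleukin 11, oncostatin M, CNTF and cardiotrophin have in common. When a ligand brings it together with LIFR or another partner, the bound JAK kinases phosphorylate STAT3, which enters the nucleus and induces targets that include its own inhibitor Socs3, while side branches feed the ERK and PI3K pathways. In mouse embryonic stem cells cultured with LIF, this pathway is known for holding the cells in the self-renewing, naive state.

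In these arrays, the transcripts at least 2-fold lower in the gp130 KO cells included the chemokines Cxcl1, Cxcl5, Cxcl3 and Ccl2, the colony-stimulating factor Csf3, interleukin 1 alpha and the ligand LIF itself. Single genes of other kinds, such as Slc16a12, Rgs16 and Slc30a1, had ratios as large. Some matrix proteases (Mmp10, Mmp13), EGF-family ligands (Areg, Hbegf) and genes that respond to ERK (Egr1, Fosl1) were 2-fold lower as well. Higher in the gp130 KO cells were some genes of growth arrest and of the response to low insulin signalling, such as Bmf, Ccng2 and Hbp1. Other growth arrest genes went the other way, among them Cdkn1a, which encodes the CDK inhibitor p21 and was 1.94-fold lower. Cpt1a, the gatekeeper of mitochondrial fatty acid oxidation, was higher. The core of the receptor pathway, Il6st, Lifr, the JAK kinases and Stat3, differed by less than 1.5-fold.

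A signal below is the scanner's background-subtracted brightness, scaled so that the 75th percentile of each array equals that of the wildtype array, and a log2 ratio is gp130 KO over wildtype. On the arrays, 64.4% of probes on the wildtype and 65.5% on the gp130 KO array were well above background, and the 75th percentiles before scaling were 666 and 654. Where a probe well above background was spotted repeatedly, the SD of its log2 signal was 0.0527 (wildtype) and 0.0510 (gp130 KO) in the median probe. For a single spot of such a median probe on each array, the ratio is known to within 0.144 (95% half-width), or 1.1-fold. At the 90th percentile of these probes the SD was 0.155 and 0.146, so the half-width of 0.144 is too narrow for many probes. It covers spots on an array and not cultures, and having 1 array a group limits how precise any value below can be. The scanner software's own error of a log2 ratio was 0.20 for a well lit probe such as that of Cxcl1 and 0.37 for a dim one such as that of Cebpa, and it stands after ± where an error is given.

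The array does not show the knockout in the targeted gene. Il6st has a single probe, which read 329 in wildtype, 305 in gp130 KO and 328 in LIFR KO cells, a log2 ratio of -0.11 ± 0.20. Its value thus lay within the scanner error of no difference, and since the deleted part of Il6st is not given in the sources used here, a probe outside it checks nothing. Lifr, the partner chain, was measured by 1 of its 3 probes, at 34.9 in wildtype and 35.3 in gp130 KO cells, and its remaining probes stayed dim on all 3 arrays. The identity of the gp130 KO array therefore rests on its label.

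The markers of embryonic stem cells were borne out only in part. Of 20 markers of naive pluripotency, 11 were measured on both arrays, while Zfp42, Dppa3, Prdm14, Fgf4, Nr0b1, Dppa2, Dppa4, Tcl1 and Gbx2 were not well above background. Nanog, a core pluripotency factor, gave 316 and 335 in wildtype and gp130 KO cells, Pou5f1 (Oct4) gave 31.2 and 20.7, and Sox2 was not well above background on either. The summed signal of the 11 naive markers was 6817 and 5423, and their median log2 ratio was -0.08, with Dppa5a highest at 0.98 and Klf2 lowest at -0.65. Of 24 epithelial markers, 22 were measured on both arrays with a median log2 ratio of 0.06, among them Krt18 at 39533 and 42211 and Cdh1 (E-cadherin) at 9174 and 10012. The epithelial markers Cldn1 and Cldn6 were not well above background. Of 14 markers of general pluripotency, 10 were measured on both arrays, among them Lin28a at 727 and 836 and Tdgf1 at 508 and 485. Bright genes were also found in lists of other types, such as the mesenchymal Vim (73043 and 85015), the trophoblast Gata3 (8287 and 11777) and the neural Nes (5976 and 5069). The mesenchymal Cdh2 (43.2 and 43.6) and Acta2 (79.6 and 78.2) were dim. Because several defining stem cell markers were dim and most epithelial ones were not, the groups are called here by their genotype labels, and no other identity is assigned.

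Markers of other cell types were looked at in the same way. Of 14 fibroblast or feeder markers, 11 were measured, with a median log2 ratio of 0.31. Above 0 were 9 of 11, where 54.0% of all genes were. Their summed signal was 23600 in wildtype and 23808 in gp130 KO cells, of which Fbln2 alone made up 22450 and 22453, and with normexp their median was 0.05. Their highest was Dcn (decorin), at 16.5 in wildtype and 34.2 in gp130 KO cells, followed by Col3a1 (0.63) and Pdgfra (0.57), while Pdgfrb, Lum and Fap were not well above background. The leukocyte markers gave 8 measured of 9 with a median of -0.14. The dimmest of the 8 was Ptprc (CD45), at 22.7 and 19.4. The brightest were Itgam, at 937 and 936, and Cd3e, at 724 and 559. The part of these cells in the results below was not tested, and in such bulk RNA fewer cells of a type and less RNA per cell cannot be told apart.

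Across the 14100 genes the arrays were close. The median log2 ratio was 0.02, the middle 50% of genes ranged from -0.13 to 0.16, and 95% of genes lay within 1.5-fold. Above 0 lay 54.0% of genes, and below 0 lay 46.0%. At least 2-fold higher in the gp130 KO cells were 77 genes (0.546%), and at least 2-fold lower were 67 genes (0.475%). At least 1.5-fold higher were 355 genes (2.52%) and at least 1.5-fold lower were 343 (2.43%). The genes just inside and just outside the 2-fold limit had log2 ratios of 1.0018 and 0.9991 on the higher side and -1.0003 and -0.9973 on the lower side.

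The genes past 2-fold came from different ranges of signal on the higher and on the lower side. Among the 3525 dimmest genes, with mean signals of 10.5 to 86.0, 52 were higher and 31 lower by 2-fold, and among the 3525 brightest, from 2068 to 263221, 0 were higher and 8 lower. The median mean signal was 37.0 among the higher genes, 117 among the lower genes and 522 among all genes. With another background correction, normexp with an offset of 50, which by construction draws dim ratios towards 0, 7 of the 77 higher genes and 32 of the 67 lower genes stayed past 2-fold. The 7 higher ones were Mzf1, Car15, Foxj1, Bmf, Cpt1a, Hbp1 and Afap1l2, named because they passed this count.

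**Figure D1:**
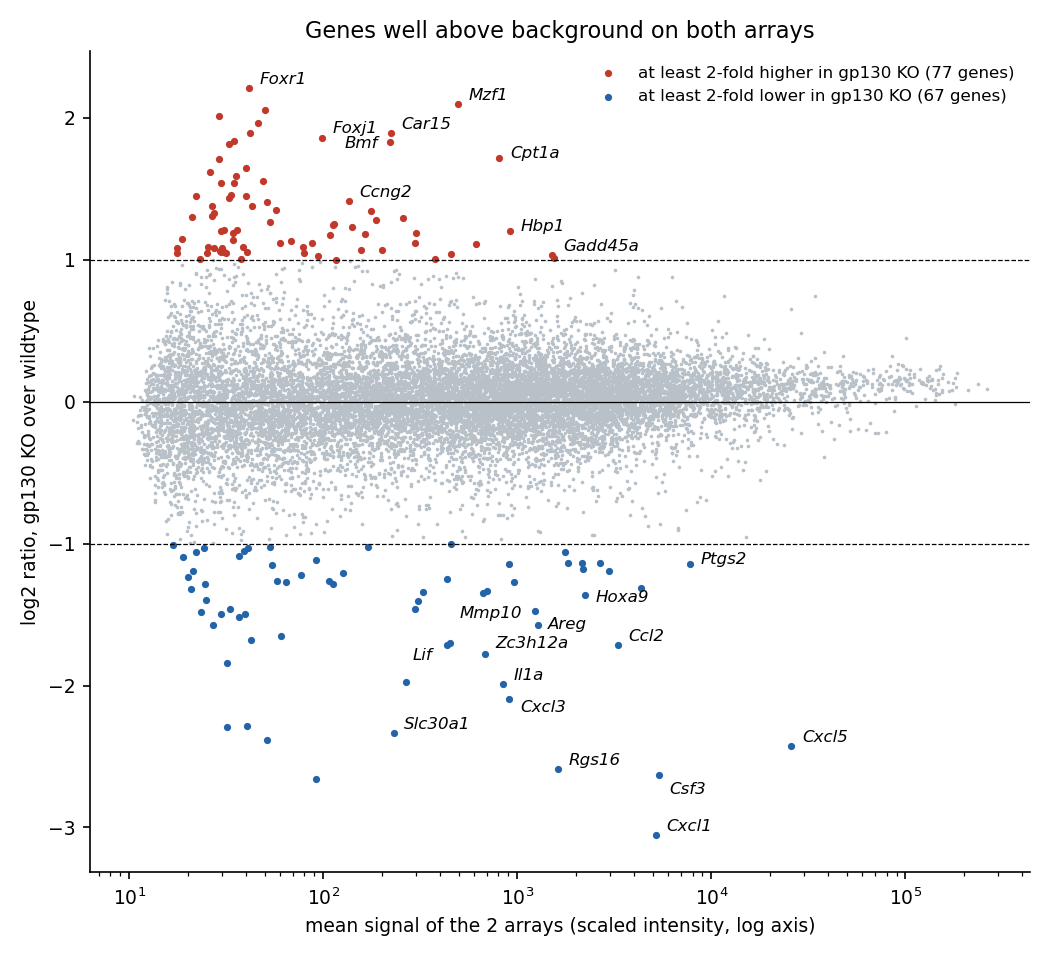
Each point is a gene measured on both arrays, with the mean signal of the 2 arrays on the horizontal axis (scaled intensity, log axis) and the log2 ratio of gp130 KO over wildtype on the vertical axis; dashed lines mark 2-fold. The 77 higher genes (red) gather at low signal, while the 67 lower genes (blue) reach from low signal up to Cxcl5, whose wildtype signal was 43588.

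Among the ligands of the gp130 family, Lif stood apart. Its signal was 688 on the wildtype, 212 on the gp130 KO and 103 on the LIFR KO array, so that the wildtype was 3.25-fold above the gp130 KO value (log2 ratio -1.70 ± 0.20). Il6, the founding member of the family, was well above background only in wildtype cells, at 36.4 against 5.34, and was at least 3.70-fold lower in gp130 KO cells, a bound that takes the lowest signal well above background for the array on which a probe is dim. Clcf1, a ligand of the CNTF receptor, followed at 185 and 117 (-0.66 ± 0.21) with 62.3 on the LIFR KO array. The other ligands lay close to the bulk of genes. Ctf2 had a log2 ratio of -0.28, Osm of -0.14 and Il27 of -0.10. On the other side of 0 were Il11 at 0.18, Ctf1 at 0.20 and Cntf at 0.25, the last with another probe at -0.03. Ebi3, a subunit of interleukin 27, was near the floor, at 13.8 and 14.5, and well above background on the gp130 KO array only.

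The receptor chains were all within 1.5-fold. Il6ra, which binds interleukin 6 before gp130 joins, was the highest of them, at 1331 in wildtype and 1926 in gp130 KO cells (0.53 ± 0.20), with 1589 on the LIFR KO array. Osmr, the oncostatin M receptor, was at 196 and 134 (-0.54 ± 0.21). Il31ra had a log2 ratio of -0.43, Cntfr of -0.30 and Il11ra1 of 0.02, and Il27ra was not well above background. Over the whole family, 16 of 19 genes were measured on both arrays, 0 were 2-fold higher and 1, Lif, was 2-fold lower, where 0.475% of all genes were, with medians of -0.14 over 9 ligands and -0.11 over 7 receptors against 0.02 over all genes.

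The signalling machinery below the receptors gave small ratios. The kinases had log2 ratios of 0.05 for Jak1, -0.10 for Jak2, -0.24 for Jak3 and -0.09 for Tyk2. Stat3, the main effector of gp130, gave 1618 in wildtype, 1497 in gp130 KO and 2119 in LIFR KO cells, and its other probe had a log2 ratio of 0.07. Of the other STAT genes, Stat2 was higher at 842 and 1263 (0.58 ± 0.20), Stat5a had a log2 ratio of 0.21 and Stat6 of -0.12, while Stat4 was not well above background. Stat5b was at -0.43 by its brighter probe and at 0.06 by its other probe, so its probes disagreed.

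The feedback inhibitors of the pathway did not move together. Cish, an inhibitor induced by STAT5, was the only JAK-STAT component past 2-fold, at 227 in wildtype and 112 in gp130 KO cells (-1.03 ± 0.21, -0.77 with normexp), and the LIFR KO value was on the other side of wildtype, at 369.9. Socs3, the feedback inhibitor that binds gp130 and is induced by STAT3, was at 2256 and 1853 (-0.28 ± 0.20), and at 5840 on the LIFR KO array. The gp130 KO value of Socs3 was thus a little under wildtype and the LIFR KO value above both. Socs1 had a log2 ratio of -0.26, Socs2 of -0.47, Socs4 of -0.10, Socs5 of -0.32, Socs6 of -0.14 and Socs7 of 0.08. The phosphatases that end STAT signalling ranged from -0.23 for Ptpn1 over -0.15 for Ptpn6 and 0.02 for Ptpn2 to 0.15 for Ptpn11 (SHP2). Among the PIAS proteins, which restrain STAT factors, Pias2 was at -0.16, Pias4 at 0.21 and Pias1 at 0.34, and Pias3 was well above background on the gp130 KO array only, at 12.6. Of the 24 components measured, 16 lay below 0, where 46.0% of all genes did, with a median of -0.11.

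Known targets of STAT3 lay mostly below 0. Of 29 measured, 21 had a log2 ratio below 0, 2 were 2-fold and 7 were 1.5-fold lower, 1 was 1.5-fold higher, and the median was -0.32. Over all genes, 46.0% lay below 0, 0.475% were 2-fold and 2.43% were 1.5-fold lower. Without spots beside a shifted dim spot, a setting chosen after seeing the data and described below, the median of the list was -0.10. Cebpd, a transcription factor of the acute-phase response, was at 2391 and 1149 (-1.06 ± 0.20), with 596 on the LIFR KO array. The others past 1.5-fold beside Cish were Ier3 (-0.88), Fos (-0.80), the kinase Pim3 (-0.80), Bcl3 (-0.73) and the cyclin Ccnd1 (-0.67). Pim1, a survival kinase, was the highest member, at 43.3 in wildtype and 70.5 in gp130 KO cells. Junb (0.01), Mcl1 (-0.08) and the stem cell factors Klf4 (-0.06) and Tfcp2l1 (0.17) were close to the median of all genes, and Klf5 was at -0.32. Bcl2l1 had probes at -0.10 and -1.01, and the brighter one is the value counted.

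A chemokine held the largest ratio of the comparison. Cxcl1, a neutrophil attractant acting on CXCR2, gave 9220 in wildtype, 1110 in gp130 KO and 631 in LIFR KO cells (-3.05 ± 0.20, 8.30-fold). Cxcl5, which acts on the same receptor, was at 43588, 8122 and 5977 (-2.42 ± 0.20). Cxcl3, another CXCR2 ligand, was at 1478, 346 and 360.3 (-2.10 ± 0.20). In each of these, the wildtype array was high and both knockout arrays were low. Cxcl2, also a CXCR2 ligand, was well above background only in wildtype cells, at 27.4 against 8.53, at least 2.78-fold lower. Of 6 neutrophil chemokines on the array, 4 were measured on both arrays. Of these, 3 were 2-fold lower and the highest was at -0.14. The monocyte attractants Ccl2 and Ccl7, which are neighbouring genes that act on CCR2, were also low on both knockout arrays. Ccl2 gave 5074, 1543 and 849 (-1.72 ± 0.20), and Ccl7 gave 92.0, 29.4 and 20.5 (-1.65 ± 0.24), which came to -0.66 with normexp.

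The rest of the chemokine list did not follow. Of 18 chemokines measured, 5 were 2-fold lower, where 0.475% of all genes were, and 0 were 2-fold higher, and the median was -0.28. With normexp 4 of the 5 stayed, without Ccl7, and the median came to -0.18. Ccl4 was at -0.20, Ccl5 at 0.08, the interferon-induced Cxcl10 at -0.40 and Cxcl9 at -0.01, Cxcl16 at -0.49 and Cx3cl1 at -0.35, and the highest was Ccl25 at 0.28. A further 13 chemokines on the array were not well above background on either. The list was written with earlier results of these arrays known, so its count is no independent evidence of a direction.

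Colony-stimulating factors and other cytokines were lower beside the chemokines. Csf3 (G-CSF), which drives neutrophil production, was at 9215 in wildtype, 1490 in gp130 KO and 960.4 in LIFR KO cells (-2.63 ± 0.20). Csf2 (GM-CSF) was at 58.4, 20.7 and 23.2 (-1.49 ± 0.27), and Csf1 (M-CSF) was at 7020 and 4538 (-0.63 ± 0.20), with other probes of Csf1 at -0.21 and -0.16. All 3 growth factors of myeloid cells were thus lower, Csf1 by less than 2-fold, and Csf2 by less than 2-fold with normexp (-0.49). Il1a, an alarmin of epithelial cells, was at 1357, 341 and 475 (-1.99 ± 0.20), whereas the related Il1b had a log2 ratio of -0.45, Il18 of 0.01 and Il33 of 0.07. Tslp, an epithelial cytokine that acts on dendritic cells, was at 959 and 378 (-1.34 ± 0.20), and Il23a, the p19 subunit of interleukin 23, was at 611 and 305 (-1.0 ± 0.20). Against this direction, the interleukin 33 receptor Il1rl1 (0.93 ± 0.30) and Il15 (0.76 ± 0.22) were more than 1.5-fold higher. In all, 5 of 17 measured cytokines and receptors were 2-fold lower, where 0.475% of all genes were. Among the 17, 0 were 2-fold higher, and the median was -0.45. With normexp Csf2 and Il23a (-0.84) left the 2-fold genes, 3 of the 5 stayed, and the median of the list came to -0.13.

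**Figure D2:**
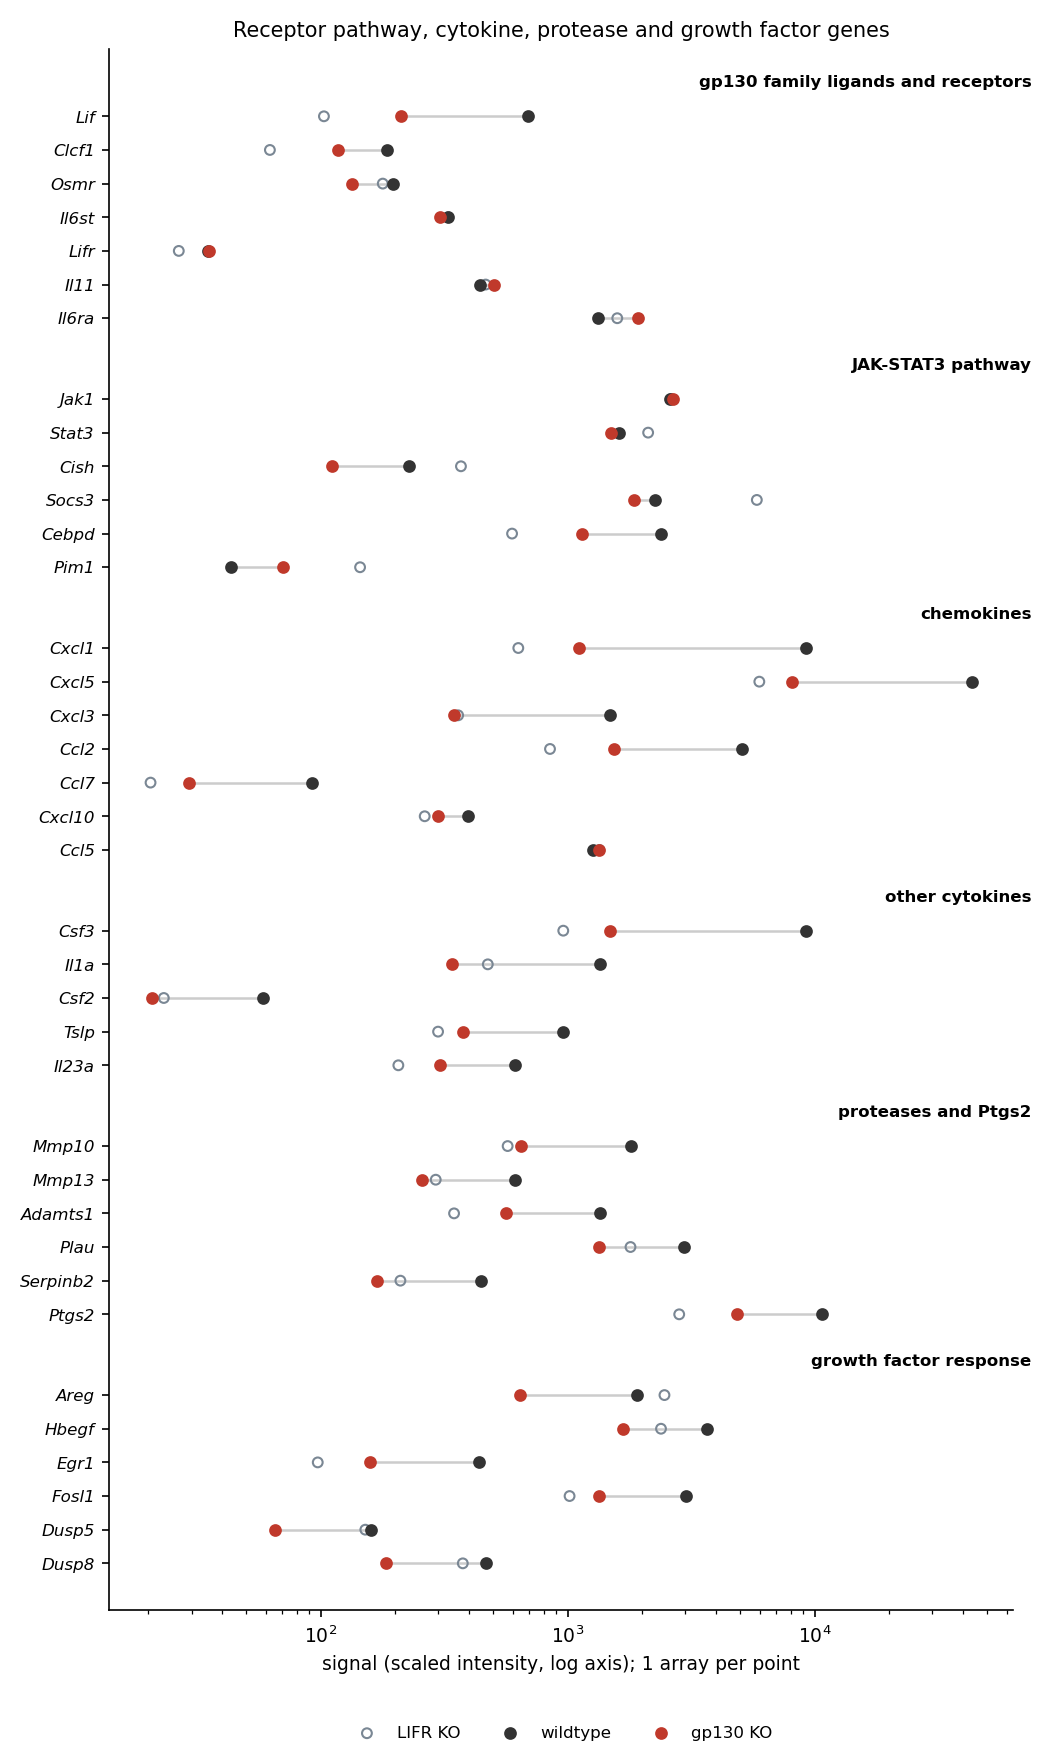
Signals (scaled intensity, log axis) of receptor pathway, cytokine, protease and growth factor genes on the wildtype (black), gp130 KO (red) and LIFR KO (open grey) arrays, 1 array per point, with a grey line from wildtype to gp130 KO. Il6st, Lifr, Jak1 and Stat3 have nearly the same signal on the wildtype and gp130 KO arrays, while the red points of Cxcl1, Cxcl5, Csf3, Il1a and Lif lie far to the left of the black ones.

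NF-kB, the factor known for inducing many of these cytokines, also induces its own inhibitors. Of 14 measured feedback genes 12 were below 0, where 46.0% of all genes were, and 6 were 1.5-fold lower, where 2.43% of all genes were, with a median of -0.43. Nfkbia, which encodes the inhibitor IkB alpha, was at 8825 in wildtype, 4715 in gp130 KO and 3614 in LIFR KO cells (-0.90 ± 0.20). Tnfaip3 (A20), a deubiquitinase that stops the pathway, was at 6989, 3839 and 2622 (-0.86 ± 0.20). Traf1 was lowest of the list, at -0.94, with Nfkbiz at -0.92 and Nfkbie at -0.75. Of the subunits, Relb (-0.74, other probe -0.77) and Nfkb2 (-0.65) were more than 1.5-fold lower, while Rela (0.14), Nfkb1 (0.01) and Rel (-0.26) were not. The kinases upstream were between -0.13 for Chuk and 0.31 for Ikbkg, the highest of the list. Over the 23 genes measured none was 2-fold lower or higher, 8 were 1.5-fold lower, 0 were 1.5-fold higher, and the median was -0.19, or -0.08 with normexp.

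Zc3h12a, an RNase that degrades cytokine mRNAs and is itself induced by interleukin 1, was among the 15 largest lower ratios. It was at 1051 in wildtype, 306 in gp130 KO and 589 in LIFR KO cells (-1.78 ± 0.20). Ptgs2 (COX-2), the inducible enzyme of prostaglandin synthesis, was at 10744, 4873 and 2831 (-1.14 ± 0.20). No other gene of the prostaglandin list passed 1.5-fold: its housekeeping counterpart Ptgs1 was at 0.06, the prostaglandin E synthase Ptges at 0.10, and the highest was Ptgr1 at 0.24. Acute-phase, complement and mucosal defence genes stayed near the bulk, with 0 of 22 past 2-fold and a median of -0.07. Lcn2 was at -0.26 and C3 at -0.05, the lowest was Camp at -0.65, and the highest was the endotoxin receptor Tlr4, at 331 and 607 (0.88 ± 0.20).

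Several secreted proteases and some of their regulators had lower signals. The collagenase Mmp13 was at 615 in wildtype, 258 in gp130 KO and 292 in LIFR KO cells (-1.25 ± 0.20). The stromelysin Mmp10 was at 1811, 650.3 and 572 (-1.48 ± 0.20). Plau, the urokinase that activates plasminogen, was at 2954, 1342 and 1798 (-1.14 ± 0.20), its receptor Plaur was at -0.80, and Serpinb2, an inhibitor of urokinase, was at 446 and 169 (-1.4 ± 0.21). Plau, Plaur and Serpinb2 were thus lower on the gp130 KO array, but not every member of this system was. Plat, another plasminogen activator, was at 77.0 in wildtype, 90.5 in gp130 KO and 237 in LIFR KO cells (0.23 ± 0.21). Adamts1, which cleaves proteoglycans, was at 1356 and 562 (-1.27 ± 0.20). Other proteases were less far from 0, such as Mmp9 (-0.62), Mmp3 (-0.46) and Mmp14 (-0.20), and the sheddases Adam10 (0.13) and Adam17 (0.02) were within the scanner error. Serpine2, an inhibitor of thrombin and urokinase, was 2-fold higher, at 17.8 and 65.9 (1.89 ± 0.28), but its normexp ratio was 0.66. Of 22 measured members 5 were 2-fold lower, where 0.475% of all genes were, and 1 was 2-fold higher. The median was -0.46 over the 15 proteases, 5 of which lay above 0, and -0.08 over the 7 inhibitors and receptors, 3 of which lay above 0.

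Ligands of the EGF receptor family were all on the lower side. Areg (amphiregulin) was at 1906 in wildtype and 639.8 in gp130 KO cells (-1.58 ± 0.20), while the LIFR KO array was at 2468, above wildtype. Hbegf was at 3682, 1673 and 2389 (-1.14 ± 0.20). The remaining measured ligands ranged from -0.48 for Btc to -0.04 for Epgn. Thus 8 of 8 lay below 0, where 46.0% of all genes did, with a median of -0.42. The receptors did not share this: Egfr was at 0.12 (other probe -0.54), Erbb2 at -0.05 and Erbb3 at 0.58, the highest of the family.

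Genes that respond to ERK, the kinase branch that growth factors and gp130 have in common, gave the lowest median of the pathway lists, -0.56. Of 31 measured, 5 were 2-fold and 14 were 1.5-fold lower, where 0.475% and 2.43% of all genes were, and 0 were 1.5-fold higher. The early growth response factor Egr1 was at 436 in wildtype, 158 in gp130 KO and 97.3 in LIFR KO cells (-1.46 ± 0.20), and Egr2 was well above background only in wildtype cells, at least 2.64-fold lower in gp130 KO cells. Phosphatases that dampen the pathway included Dusp5 at 159.7 and 65.5 (-1.28 ± 0.21, -0.67 with normexp, under 2-fold) and Dusp8 at 467 and 184 (-1.34 ± 0.20, other probe -1.09). On the LIFR KO array Dusp5 was at 152 and Dusp8 at 376, nearer to wildtype than the gp130 KO values were. Feedback genes were mixed, since Spry4 was at -0.95 and Dusp2 at -0.66, whereas Dusp6 was at -0.21, Dusp1 at 0.02, Dusp4 at 0.29 and Spry1 at 0.33. The ETS factors known as ERK readouts did not pass 1.5-fold, with Etv4 at -0.24, Etv5 at -0.03 and Etv1 at 0.34, the highest of the list. The remaining targets, 9 of 9 below 0 where 46.0% of all genes were, included Phlda1 (-0.96), Epha2 (-0.69) and Ccnd1 (-0.67).

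AP-1, the dimer of FOS and JUN proteins that ERK and JNK activate, binds the promoters of several of these proteases and cytokines. Its FOS members were 4 of 4 below 0, where 46.0% of all genes were. Fosl1 (FRA1) was at 3023 in wildtype, 1339 in gp130 KO and 1019 in LIFR KO cells (-1.18 ± 0.20). Fos (-0.80), Fosl2 (-0.46) and Fosb (-0.44) followed. Fos was at 44.2, 25.4 and 189.6 and Fosb at 168, 124 and 346, so both were above wildtype on the LIFR KO array. The Fos ratio came as near to 0 as -0.23 under other normalisations or backgrounds. Jun was at -0.54, but Junb (0.01) and Jund (0.07, the highest of the list) were not lower. Atf3 was at -0.86. Of 16 measured, 1 was 2-fold and 4 were 1.5-fold lower, where 0.475% and 2.43% of all genes were. Among the 16, 0 were 1.5-fold higher, and the median was -0.44, or -0.26 with normexp.

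The sequences before the starts of these genes were searched for the sites that such factors are known to bind. RefSeq promoters of build GRCm38.p6 were found for 11255 of the 14100 measured genes, for 47 of the 67 lower and 58 of the 77 higher genes, and the 250 bases before each start were searched on both strands. The AP-1 motif TGANTCA was in 23.1% of the 52 promoters of lower genes, in 9.64% of the 83 promoters of higher genes and in 5.06% of all 14196 promoters. The 10 lower genes with it were Il1a, Lif, Mmp10, Mmp13, Mmp1b, Serpinb2, F3, Gpr39, Ccdc33 and AA467197, some of them with several listed starts. The STAT motif TTCNNNGAA was in 11.5%, 7.23% and 6.04% of these sets. The 6 lower genes with it were 1810024B03Rik, C7, D030028A08Rik, Plch1, Sec22a and Serpinb2. All but Serpinb2 had signals under 100 and came under 1.5-fold with normexp. The NF-kB consensus was in 3.85%, 4.82% and 4.42%, and the lower genes with it were Cxcl1 and Cxcl3. The CRE motif TGACGTCA was in 3.85%, 0% and 2.40%, the serum response element in 1.92%, 1.2% and 1.26%, and the EGR motif GCGNGGGCG in 3.85%, 6.02% and 8.0%. A forkhead motif, TGTTTAC, was added after seeing the data and was in 3.85%, 3.61% and 2.33%. Neighbouring genes such as Mmp10, Mmp13 and Mmp1b share a gene cluster, so the promoters are not independent of each other.

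The windows of 10 genes are shown, from genes of the groups described here, because they show where the matches lie. Capitals mark the matched motifs, each line reads 5′ to 3′ along the gene's strand and ends at the base before the start, which is position -1.
Cxcl1: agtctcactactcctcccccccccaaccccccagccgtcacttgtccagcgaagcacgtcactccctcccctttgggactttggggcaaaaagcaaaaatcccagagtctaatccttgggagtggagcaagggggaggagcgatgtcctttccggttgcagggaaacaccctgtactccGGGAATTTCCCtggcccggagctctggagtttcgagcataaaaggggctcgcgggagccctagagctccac
Cxcl3: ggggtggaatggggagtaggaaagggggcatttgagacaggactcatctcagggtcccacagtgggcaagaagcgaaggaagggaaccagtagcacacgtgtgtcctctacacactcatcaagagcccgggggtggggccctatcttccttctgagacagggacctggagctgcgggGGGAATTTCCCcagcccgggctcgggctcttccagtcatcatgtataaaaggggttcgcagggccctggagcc
Lif: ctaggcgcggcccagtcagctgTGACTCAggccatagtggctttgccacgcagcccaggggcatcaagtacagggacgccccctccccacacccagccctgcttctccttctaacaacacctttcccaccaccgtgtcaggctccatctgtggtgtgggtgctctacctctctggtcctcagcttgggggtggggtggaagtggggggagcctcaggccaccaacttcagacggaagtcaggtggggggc
Il1a: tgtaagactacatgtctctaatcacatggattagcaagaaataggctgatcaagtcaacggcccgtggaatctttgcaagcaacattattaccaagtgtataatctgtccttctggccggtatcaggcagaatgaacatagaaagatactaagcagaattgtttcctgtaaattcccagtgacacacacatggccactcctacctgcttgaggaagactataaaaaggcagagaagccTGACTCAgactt
Mmp13: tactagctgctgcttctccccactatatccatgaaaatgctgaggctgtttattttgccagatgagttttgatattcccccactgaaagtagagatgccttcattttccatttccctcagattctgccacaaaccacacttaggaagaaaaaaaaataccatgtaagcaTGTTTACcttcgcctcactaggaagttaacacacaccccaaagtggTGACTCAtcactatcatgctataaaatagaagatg
Mmp10: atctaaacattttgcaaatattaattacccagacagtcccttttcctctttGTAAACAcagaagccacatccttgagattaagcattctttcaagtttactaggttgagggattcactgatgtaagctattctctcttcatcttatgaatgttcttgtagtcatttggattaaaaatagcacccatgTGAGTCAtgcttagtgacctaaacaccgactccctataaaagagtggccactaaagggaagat
Areg: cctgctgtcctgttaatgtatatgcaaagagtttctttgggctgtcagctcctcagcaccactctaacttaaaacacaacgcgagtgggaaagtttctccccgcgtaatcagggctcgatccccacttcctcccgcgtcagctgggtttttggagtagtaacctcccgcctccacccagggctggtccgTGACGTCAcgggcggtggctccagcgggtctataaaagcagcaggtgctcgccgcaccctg
Dusp5: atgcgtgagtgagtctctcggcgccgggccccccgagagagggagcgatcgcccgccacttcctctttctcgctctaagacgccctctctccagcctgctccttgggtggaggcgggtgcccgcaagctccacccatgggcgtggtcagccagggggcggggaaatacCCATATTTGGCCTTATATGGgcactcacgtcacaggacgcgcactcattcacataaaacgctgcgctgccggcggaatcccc
Socs3: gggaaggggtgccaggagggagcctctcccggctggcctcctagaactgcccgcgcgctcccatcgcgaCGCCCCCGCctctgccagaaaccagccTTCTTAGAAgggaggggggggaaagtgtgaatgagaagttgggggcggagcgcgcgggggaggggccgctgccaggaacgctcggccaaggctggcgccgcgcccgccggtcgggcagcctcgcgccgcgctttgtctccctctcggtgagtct
Hbp1: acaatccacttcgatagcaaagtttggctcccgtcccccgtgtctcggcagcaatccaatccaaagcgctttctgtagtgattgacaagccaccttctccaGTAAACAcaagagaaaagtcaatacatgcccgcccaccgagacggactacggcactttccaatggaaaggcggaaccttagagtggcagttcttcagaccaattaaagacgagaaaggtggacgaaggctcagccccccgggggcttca

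Cxcl1 (chr5:90890995-90891244, plus strand) and Cxcl3 (chr5:90785851-90786100, plus strand) carry the same 11 letters, a pair of overlapping NF-kB matches on opposite strands, at -71 to -61 and -73 to -63. Il1a (chr2:129309973-129310222, minus strand) has an AP-1 match at -12 to -6, Lif (chr11:4257318-4257567, plus strand) at -228 to -222, Mmp13 (chr9:7272264-7272513, plus strand) at -35 to -29 and Mmp10 (chr9:7502092-7502341, plus strand) at -63 to -57, and both proteases also hold the forkhead letters, at -81 to -75 and -199 to -193. Areg (chr5:91139349-91139598, plus strand) has the CRE letters at -61 to -54. Dusp5 (chr19:53528895-53529144, plus strand) has 2 adjoining serum response elements from -82 to -63. Socs3 (chr11:117969367-117969616, minus strand) has a STAT match at -154 to -146 and an EGR match at -181 to -173, and Hbp1 (chr12:31950246-31950495, minus strand), described below, has the forkhead letters at -149 to -143. A match is a description of letters and no evidence of binding, and a window without a match says only that these letters are not in it.

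Several of the largest lower ratios belonged to none of these pathways. Rgs16, which switches off G protein signals, was at 2796 in wildtype, 465 in gp130 KO and 1009 in LIFR KO cells (-2.59 ± 0.20), and none of the other 11 RGS genes measured passed 1.5-fold, with Rgs9 next at -0.40 and Rgs8 highest at 0.30. Slc30a1, the zinc exporter of the cell membrane, was at 386, 76.4 and 149 (-2.34 ± 0.21), while the metallothioneins Mt1 (-0.25) and Mt2 (-0.39), which also respond to zinc, and the zinc sensor Mtf1 (-0.12) were less far from 0. The importers Slc39a10 (0.61) and Slc39a3 (0.64), the highest of the 23 zinc genes, were more than 1.5-fold higher. Slc16a12, a creatine transporter of the monocarboxylate transporter family, was at 158 in wildtype, 25 in gp130 KO and 167 in LIFR KO cells. It was thus low on the gp130 KO array alone, with a log2 ratio of -2.66 ± 0.25 that came to -1.21 with normexp. Its relatives ranged from -0.69 for Slc16a6 to 0.57 for Slc16a10.

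Secreted regulators were also among them. Nppb, the natriuretic peptide BNP, was at 427 in wildtype, 109 in gp130 KO and 197 in LIFR KO cells (-1.97 ± 0.21). Fst (follistatin), which binds activin, was at 665, 202 and 273 (-1.72 ± 0.20). Both were low on both knockout arrays. Ccn1 (CYR61), a matrix protein induced by growth factors and YAP, was at 6225 and 2504 (-1.31 ± 0.20), the sole member of 17 EMT and mesenchymal genes past 2-fold. Its relative Ccn2 was at 0.16, Vim at 0.22 and the EMT factor Zeb2 at -0.62. The dim genes Prr36 (86.4 and 16.6) and Tenm1 (67.6 and 13.8) completed the 15 largest among genes also 1.5-fold with normexp and quantile scaling. With normexp their log2 ratios were -0.73 and -0.70, so that neither stayed past 2-fold.

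Developmental regulators were split. Id1, an inhibitor of differentiation factors that BMP induces, was at 2524 in wildtype and 1148 in gp130 KO cells (-1.14 ± 0.20), and at 5268 on the LIFR KO array. The gp130 KO value of Id1 was under wildtype and the LIFR KO value above it. Id2 (-0.31) and Id3 (-0.23) were closer to 0, Id4 was at 0.28, Nog was the next lowest at -0.94 and Hey1 the highest of the 15 BMP and ID genes at 0.68. Of 39 Hox genes, 16 were measured. Hoxa9 was at 3236 and 1257 (-1.36 ± 0.20), but its other probe had a log2 ratio of -0.14, so its probes disagreed. Hoxa2 was at 297 and 610.2 (1.04 ± 0.20, 0.84 with normexp), with its neighbours Hoxa3 at 0.57 and Hoxa5 at 0.69, and at 233 on the LIFR KO array.

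On the higher side, genes known or proposed as targets of FOXO factors formed the clearest group. FOXO factors are forkhead proteins that PI3K and AKT keep out of the nucleus, and they induce genes of growth arrest, cell death and the fasting response. Of 29 members measured, 26 had a log2 ratio above 0, 8 were 2-fold and 12 were 1.5-fold higher. Over all genes these shares were 54.0%, 0.546% and 2.52%. Of the members 0 were 1.5-fold lower, and the median was 0.50 against 0.02 over all genes. The list was written with earlier results of these arrays known, so its direction is no independent evidence.

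Genes of growth arrest and death came first. Bmf, a BH3-only protein that triggers apoptosis, was at 97.4 in wildtype, 347 in gp130 KO and 1141 in LIFR KO cells (1.83 ± 0.21). Ccng2, a cyclin that halts the cycle, was at 74.3, 198 and 218 (1.41 ± 0.21). Hbp1, a repressor of cell cycle genes, was at 558, 1287 and 1424 (1.21 ± 0.20), with another probe at 0.58. In all 3, the gp130 KO and LIFR KO arrays were above wildtype. Gadd45a, a stress-induced growth arrest gene, was at 995, 2040 and 2311 (1.04 ± 0.20). Trp53inp1 was at 51.7, 107 and 224 (1.05 ± 0.21), but its other probe had a log2 ratio of 0.17. The CDK inhibitor Cdkn1b (p27) was at 4281, 6772 and 5958 (0.66 ± 0.20), and Btg1, an antiproliferative gene, had probes at 0.74 and 0.10. Bcl6 was at 0.50 and Rbl2 at 0.51. Bcl2l11 (BIM), a textbook FOXO target, was at 0.14, Gadd45b at -0.38 and Bbc3 (PUMA) at -0.17, so that the group was not uniform.

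Genes of the response to low insulin and nutrients were the other branch. Fbxo32 (atrogin-1), a ubiquitin ligase of muscle wasting, was at 84.4 in wildtype, 198 in gp130 KO and 218 in LIFR KO cells (1.23 ± 0.21). The dim genes Klhl24 (18.5 and 42.8, LIFR KO 45.6) and Ypel2 (gp130 KO 41.6, LIFR KO 110.0) passed 2-fold as well, at 1.21 and 1.06. Txnip, which limits glucose uptake, was at 334, 628 and 849 (0.91 ± 0.20, other probe 0.68). Sesn1, an inhibitor of mTORC1 signalling, was at 0.71, and the insulin receptor substrate Irs2 was at 3216 and 4779 (0.57 ± 0.20). Sesn2, which ATF4 also controls, was the lowest member at -0.51. Insr (0.09), Igf1r (0.17) and Sod2 (0.14) were close to 0, and Pdk4 and Trim63 were not well above background. With normexp, Bmf was at 1.22 and Hbp1 at 1.08, and Ccng2 (0.92), Gadd45a (0.96), Fbxo32 (0.84), Trp53inp1 (0.58), Klhl24 (0.42) and Ypel2 (0.31) came under 2-fold.

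**Figure D3:**
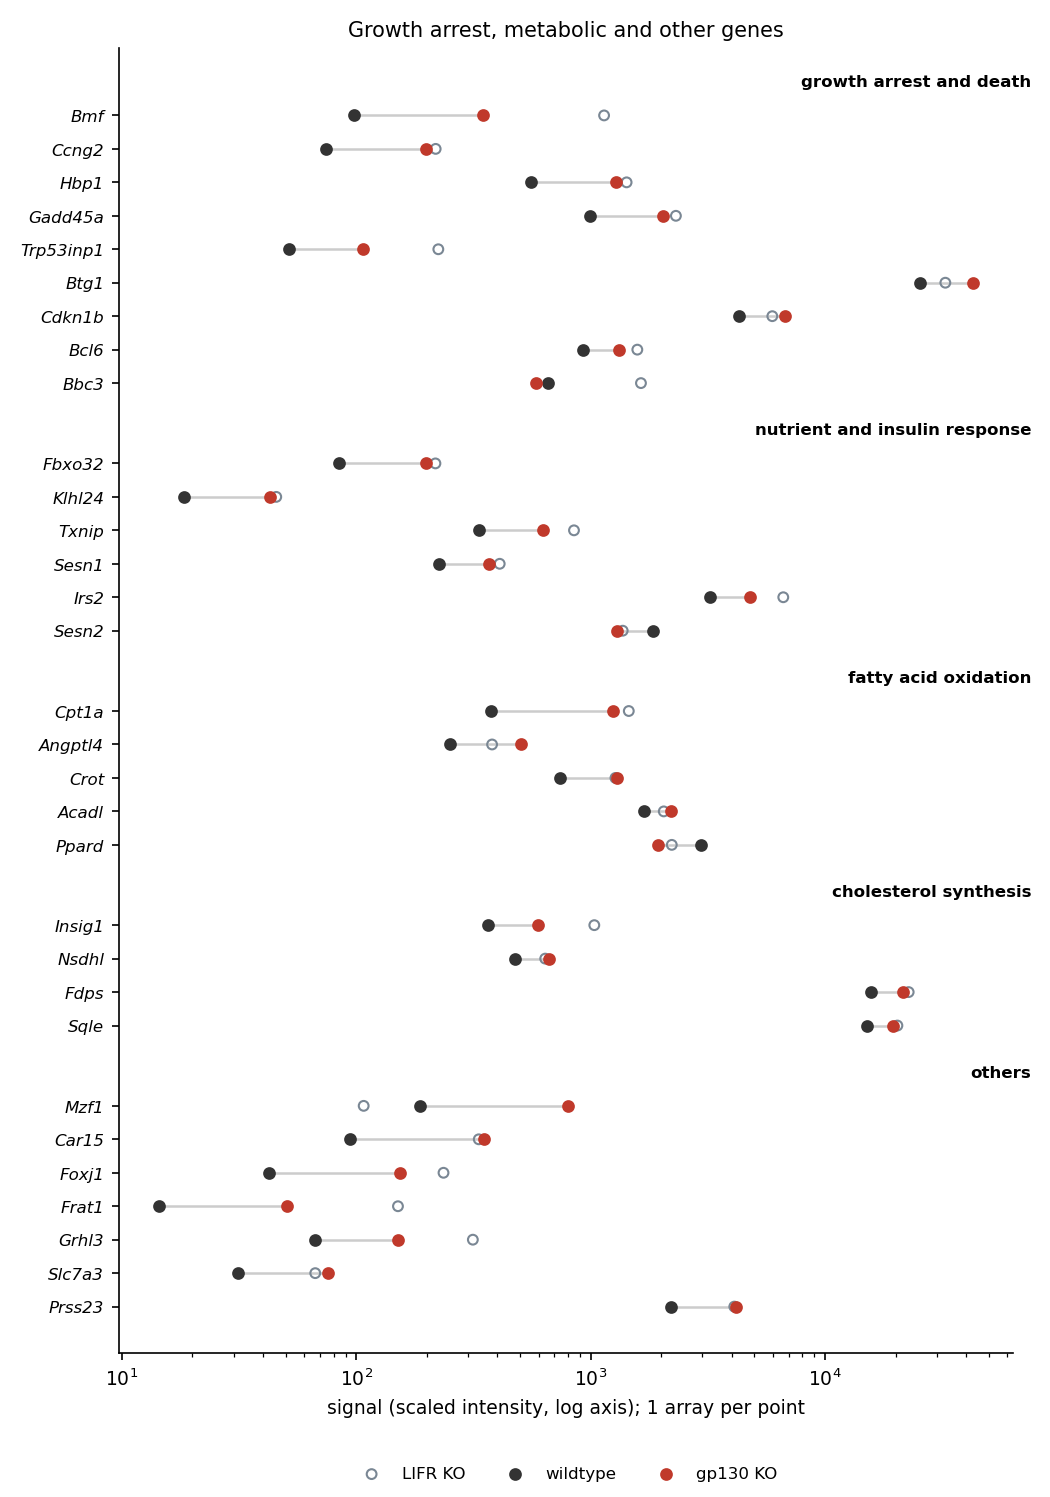
Signals (scaled intensity, log axis) of growth arrest, nutrient response, fatty acid, cholesterol and other genes on the wildtype (black), gp130 KO (red) and LIFR KO (open grey) arrays, 1 array per point, with a grey line from wildtype to gp130 KO. The red points of Bmf, Ccng2, Hbp1, Fbxo32 and Cpt1a lie to the right of the black ones, and those of Bbc3, Sesn2 and Ppard to the left.

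Bmf stood alone in the BCL2 family, which sets the threshold of apoptosis. Of 15 members measured, no other passed 1.5-fold by the probe counted, though the guardian Bcl2l1 had probes at -0.10 and -1.01. The guardians Bcl2 (0.00) and Mcl1 (-0.08) and the effectors Bax (0.16) and Bak1 (0.03) were close to 0, and the lowest was Bid at -0.57.

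Fatty acid oxidation genes were higher by small amounts, with Cpt1a far ahead. Cpt1a, which loads long-chain fatty acids onto carnitine, was at 377 in wildtype, 1242 in gp130 KO and 1455 in LIFR KO cells (1.72 ± 0.20), with another probe at 0.83. Crot, its peroxisomal counterpart, was at 738, 1290 and 1276 (0.81 ± 0.20), and Angptl4, a PPAR target that inhibits lipoprotein lipase, was at 251, 505 and 379.8 (1.01 ± 0.20, 0.81 with normexp). These were the only members past 1.5-fold on the higher side. Of the beta-oxidation enzymes, 16 of 17 were above 0, where 54.0% of all genes were, led by Etfdh (0.48), Acadl (0.38) and Acaa2 (0.37). Their median of 0.18 is smaller than the scanner error of a single gene, which is not the error of a median. Ppard, a nuclear receptor that induces this programme, was the lowest, at 2947 and 1931 (-0.61 ± 0.20), and Ppara (0.04) and Pparg (0.08) were near 0.

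Cholesterol and fatty acid synthesis genes also sat on the higher side without passing 2-fold. Of 39 measured, 34 were above 0 and 2 were 1.5-fold higher, where 54.0% and 2.52% of all genes were, with a median of 0.25. Insig1, a sterol-responsive brake on SREBP, was at 364 in wildtype, 598 in gp130 KO and 1037 in LIFR KO cells (0.72 ± 0.20), and the desaturase Scd2 was at 19918 and 31304 (0.65 ± 0.20). Enzymes of the pathway from Hmgcs1 (0.33) over Mvd (0.46), Fdps (0.44) and Sqle (0.38) to Nsdhl (0.48) were above 0.

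The largest higher ratios outside these groups were a mixed set. Mzf1, a zinc finger factor, was at 187 in wildtype and 801 in gp130 KO cells (2.10 ± 0.20, 1.77 with normexp), and at 108 on the LIFR KO array, so that the gp130 KO array alone was high. Car15, a carbonic anhydrase, was at 94.5, 352 and 333 (1.90 ± 0.21), high on both knockout arrays. Foxj1, the regulator of motile cilia, was at 42.4, 154 and 236 (1.86 ± 0.22). Of 25 listed axonemal genes on the array, 9 were measured and 16 were not well above background. The 9 ranged from -0.76 for Hydin to 0.59 for Tekt2, with 7 below 0. Outside that list, the axonemal dynein Dnah17 was dim and 2-fold higher (1.38, 0.61 with normexp). Mab21l4 was at 99.7 and 253 (1.34 ± 0.21, just under 2-fold with normexp) and Dmkn, a secreted epidermal protein, was at 32.0 and 81.8 (1.35 ± 0.23, other probe -0.11). Grhl3, a factor of epidermal differentiation, was at 66.8, 151 and 314 (1.18 ± 0.21, 0.69 with normexp), and 0 of the other 10 epithelial factors measured passed 2-fold, with Trp63 at -0.12 and Ovol1 lowest at -0.65.

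The 15 largest higher ratios were taken among genes also 1.5-fold with normexp and with quantile scaling. Several of these 15 had signals under 100 on both arrays. Foxr1 was highest of all at 2.21 ± 0.30, from signals of 14.8 and 68.4. The others were Zfp759 (19.5 and 81.3), Septin4 (18.7 and 73.1), Gstp3 (15.2 and 54.1) and the axonemal dynein Dnah17 (24.0 and 62.3), beside Serpine2, Frat1 and Dmkn. With normexp these 8 were between 0.59 and 0.74, so none stayed past 2-fold. The lower end of this range was set by the selection, because dim genes that came under 1.5-fold with normexp are outside the 15. In the Wnt pathway, Frat1, which binds GSK3, was at 14.5, 50.9 and 151 (1.81 ± 0.32) and Ccn4 (WISP1), a Wnt target, was at 385, 834 and 1101 (1.11 ± 0.20, other probe 0.92). With normexp Ccn4 was at 0.93, so neither Wnt gene stayed past 2-fold. Axin2, the common readout of Wnt signalling, was well above background only on the gp130 KO array, at least 2.20-fold higher but beside a shifted dim spot, while Ccnd1 (-0.67) and Myc (-0.48) were lower and the median of 18 Wnt genes was 0.08.

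**Figure D4:**
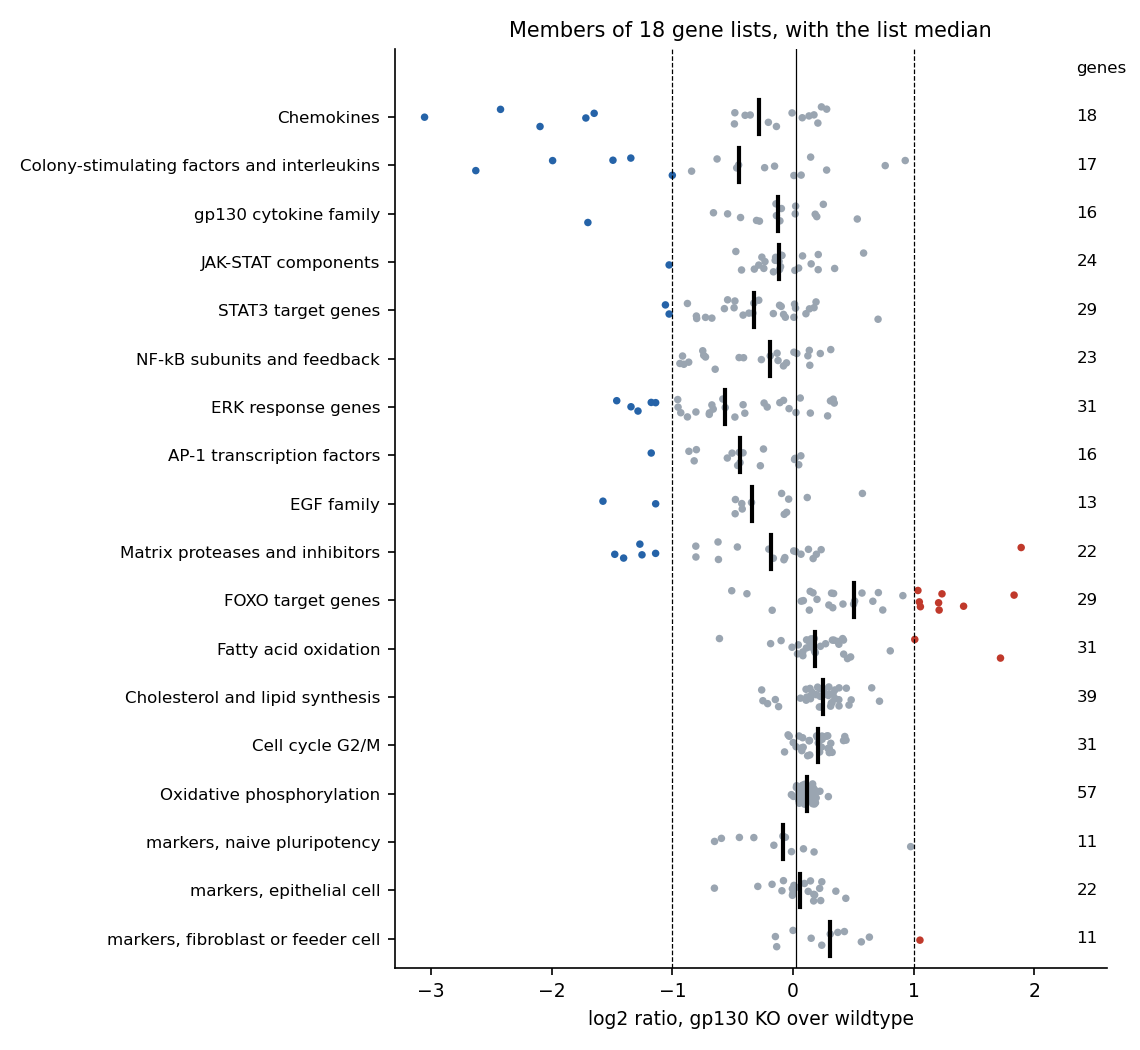
Log2 ratio of gp130 KO over wildtype for each measured member of 18 lists (points, red or blue past 2-fold), with each list's median (bar) and its number of genes at the right; the solid line is the median of all genes and dashed lines mark 2-fold. Chemokines, cytokines, ERK response genes and proteases reach past 2-fold on the lower side with medians between -0.56 and -0.18, and the FOXO list has its median at 0.50.

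Broad cell programmes differed little, and the counts above 0 below stand against 54.0% of all genes. Ribosomal protein genes were above 0 in 64 of 65 cases with a median of 0.13, but only 37 stayed above 0 under each of the 6 other normalisations or backgrounds, and the median came down to 0.01. Oxidative phosphorylation genes were above 0 in 56 of 57 cases with a median of 0.12, of which 45 stayed above 0 and the median came down to 0.05. Replication genes were above 0 in 24 of 31 and mitosis genes in 28 of 31, both with a median of 0.20, and the mitotic kinase Aurkb was at 0.44. Of these, 24 replication and 24 mitosis genes stayed above 0 under each of the 6. The lowest medians under other settings were 0.15 for replication and 0.16 for mitosis genes. These medians are no larger than the scanner error of a single gene, and the 3525 brightest genes had a median of 0.06 and the 3525 dimmest one of -0.03.

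Genes well above background on only 1 of the 2 arrays were outside the comparison, 537 higher and 295 lower in gp130 KO cells, and have bounds. At least 2-fold were 67 higher and 54 lower. Leaving out predicted genes, clones and olfactory receptors, the largest on the higher side were Tmc1 and Klhl34, each at least 7.21-fold, and Cfi, complement factor I, at 2.12 and 68.5, at least 6.53-fold. On the lower side they were Sertm1, at least 4.91-fold, Bcat1, an enzyme of branched-chain amino acid breakdown, at 45.5 and 8.33, at least 4.62-fold, and Mybpc2, at least 4.06-fold. Of the bounds past 2-fold, 38 of 67 higher and 32 of 54 lower ones lay within 20 scanner units of a dim spot that had shifted by at least 10 signal units the same way.

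The same neighbourhood measure was taken for the measured genes. Of the 77 higher genes 32.5% lay beside such a shifted dim spot, where 14.1% of all genes did, and of the 67 lower genes 34.3% did, where 16.0% of all genes did. At signals of 100 or more the counts were 6 of 24 higher and 9 of 35 lower genes. A band of the array, rows 301 to 340 of 532, held 19.5% of the higher and 14.9% of the lower genes and 7.6% of all genes. The 15 largest ratios each way among genes also 1.5-fold with normexp and with quantile scaling were looked at singly. Those beside a shifted spot were Foxr1, Mzf1, Septin4, Serpine2, Gstp3, Cpt1a and Dnah17 on the higher side. On the lower side they were Slc16a12, Cxcl5, Prr36, Tenm1, Cxcl3 and Ccl2, and the other 17 were not beside one. Beyond these, Areg, Csf2, Egr1, Ccn1, Mmp1b, Rnd1 and Ptgs2 among the lower genes and Fbxo32 and Angptl4 among the higher genes lay beside one, as did Egr2, Axin2, Klhl34, Sertm1, Bcat1 and Mybpc2 among the bounds. The part of position on the array in the dim ratios was not tested.

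Other probes gave a further reading of some genes. Among the 77 higher genes 10 had another measured probe, of which 8 pointed the same way and 4 were 1.5-fold higher, with a median log2 ratio of 0.51. Among the 67 lower genes 7 had one, of which 6 pointed the same way and 4 were 1.5-fold lower, with a median of -0.84. The tissue factor gene F3, which starts coagulation, had probes at -1.33 and -1.38, and the small GTPase gene Rnd1 at -1.14 and -1.15, both named because their other probe was also past 2-fold. Over the 3506 genes with several probes, the median absolute difference between probes was 0.12.

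**Figure D5:**
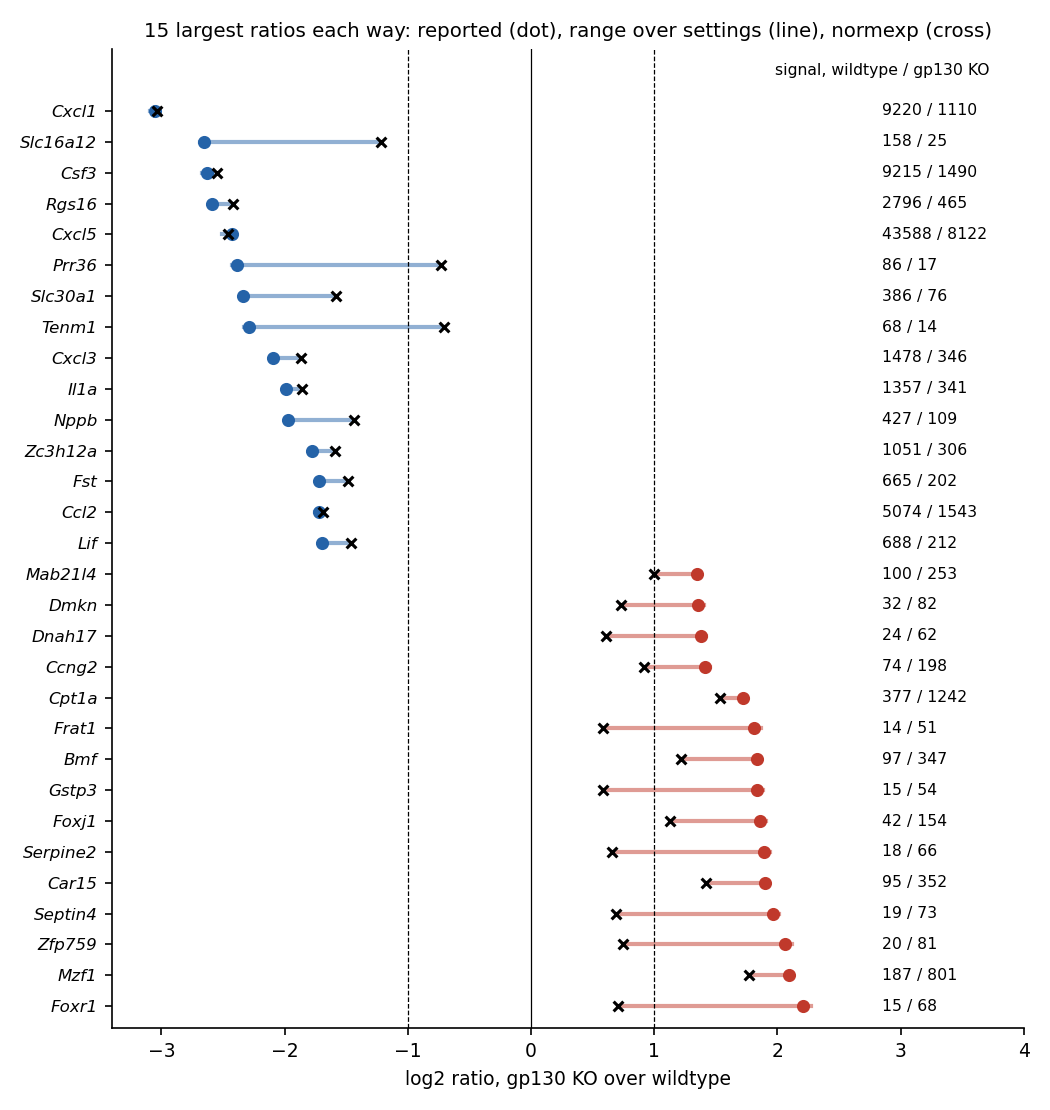
Log2 ratio of gp130 KO over wildtype as reported (dot), with the range over 6 other normalisations or backgrounds (line) and the normexp value (cross). Shown are the 15 largest ratios on each side among genes also 1.5-fold with normexp and with quantile scaling. Signals on the wildtype and gp130 KO arrays stand at the right, and dashed lines mark 2-fold. Genes of high signal such as Cxcl1, Csf3, Cxcl5 and Cpt1a stay past 2-fold, and dim ones such as Foxr1, Prr36 and Tenm1 fall inside 2-fold with normexp.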

How the data were processed

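Total RNA from 3 groups, 1 array each, was hybridised to single-colour Agilent mouse arrays and scanned; the deposited files hold an intensity and an error for each spot, raw median intensities of spot and background, and quality flags of 0 or 1. Per the file headers the authors used Feature Extraction 11.0.1.1, and the submitters' processing notes name 9.1. The authors also deposited a table of log2 values, whose equal medians fit quantile scaling, though its method is not given in the sources used here.

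Control and outlier spots were left out, each array's processed signal was divided by its 75th percentile over 43020 non-control spots less outliers, and log2 was taken. A probe counted when over 0.5 of its spots were well above background on both arrays, and a gene took its brightest such probe. Gene names came through RefSeq accessions (GRCm38.p6). The genes named are Il6st, all of the gp130 family and JAK-STAT lists, the 15 largest ratios each way that are also 1.5-fold with normexp and with quantile scaling, list members past 2-fold with each list's highest and lowest, marker genes, and the 3 largest bounds. A few genes the rule selects are not reported here. Further members are named to describe a list, and were chosen after their values were seen. The gene lists and the members were chosen with earlier results of these data known. Some genes, such as Ccnd1, Fos and Hbegf, stand in several lists, so the counts of different lists are not independent of each other. No test was run, as each group has 1 array. The software was R 4.3.3, limma 3.58.1 (normexp), Python 3.11.15, numpy 2.4.6, pandas 2.3.3, statsmodels 0.14.6 and matplotlib 3.10.9.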

Additional observations from a re-analysis of the deposited data

How the results depend on the processing

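The 77 higher and 67 lower genes became 7 and 32 with normexp (17.9% of them higher, against 53.5%), 649 and 604 with no filter on signal, 289 and 193 with a probe well above background on at least 1 array, and 35 and 44 with a filter at 4 times the lowest signal (44.3% higher). They became 49 and 40 without spots beside a shifted dim spot, an alternative chosen after seeing the data. Scaling by the array median, by the 75th percentile of probes above background, by quantiles or loess, the authors' values, means of probes and leaving out spots of raised local background kept both counts within 1.5 times. Under the 12 alternatives no ratio past 2-fold among the 102 named genes changed sign, and 31 of their alternative values moved by more than the 95% half-width from the scanner error. Of the 50 list medians, 36 kept 1 sign throughout and 14, among them those of the Hox, zinc and cilia genes, did not. The cause of the loss with the neighbour filter was not tested; with normexp the loss follows from its offset, which draws dim ratios towards 0. No paired analysis was possible because each group has 1 array, and no array could be left out. Signal over background limits the dim genes most: 53 of 77 higher and 32 of 67 lower genes had a mean signal under 100.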

Other observations

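Genes of stress and the cell cycle checkpoints were split rather than shifted. Among 24 measured p53 targets, Trp53inp1 (1.05) and Gadd45a (1.04) were 2-fold higher, though under 2-fold with normexp, while Cdkn1a, the CDK inhibitor p21, was lowest, at 429.7 in wildtype, 222 in gp130 KO and 448 in LIFR KO cells (-0.95 ± 0.20), and the kinase Plk3 followed at -0.84. The median was -0.12. Of 41 ATF4 and amino acid stress genes, Chac1, which degrades glutathione, was 2-fold lower, at 4146 in wildtype, 1816 in gp130 KO and 4719 in LIFR KO cells (-1.19 ± 0.20), and the arginine transporter Slc7a3 was 2-fold higher, at 31.4, 75.6 and 66.9 (1.27 ± 0.25, 0.47 with normexp). Trib3 (-0.91), Atf3 (-0.86) and Mthfd2 (-0.80) were lower, and the median was -0.08. Heat shock genes were above 0 in 24 of 27 cases, where 54.0% of all genes were, with a median of 0.12. Of the 24, 16 stayed above 0 in each of the 6 other normalisations or backgrounds. The highest were Hspa1a (0.92 ± 0.21), which has a near-identical copy, and Hspa4l (0.85 ± 0.20).

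The circadian clock showed the arrays apart in another way. Tef, a clock-controlled factor, was at 874 in wildtype, 1589 in gp130 KO and 1673 in LIFR KO cells (0.86 ± 0.20), and the median of 17 clock genes was 0.24. Per1, a clock repressor that also responds to serum and glucocorticoids, was at 938 and 771 (-0.28 ± 0.20) but at 6367 on the LIFR KO array. Replication-dependent histones had a median of -0.17 over 26 genes, down to -0.27 under other settings, with H4c14 at -0.62, H1f4 at -0.62 and H1f2 highest at 0.69, and these genes have near-identical copies that a probe may not tell apart. Among C/EBP and KLF factors, Cebpd was the sole member past 2-fold, and Klf11 was highest at 0.72 ± 0.22. Interferon-stimulated genes had a median of 0.04 over 35 genes with none past 2-fold, the highest being Oasl2 at 0.59 and the lowest Irf8 at -0.41. Of 15 imprinted genes, Meg3 was lowest at -0.83 ± 0.36, from signals of 20.3 and 11.5.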
